A study of Mus musculus with 2 samples.

Results

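Matrix metalloproteinases (MMPs) and tissue inhibitors of metalloproteinases (TIMPs) were followed in a mouse rectal carcinoma line and in cells of that line recovered from the lung. The set was given by symbol, as the proteases Mmp2, Mmp9, Mmp10, Mmp12, Mmp13, Mmp14 and Mmp15 and the inhibitors Timp1, Timp2 and Timp3. Every probe set that the platform annotation pairs with only 1 of these symbols was taken, which gave 21 of the 45037 probe sets and 9 of the 10 genes, among 18193 named genes in all. Mmp15 had no such probe set and is not analysed here.

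The parental group was cultured CMT-93, a rectal carcinoma line from the mouse. For the derived group, CMT-93-PM1, the same line was injected into tail veins of female C57BL/6 mice aged 6 weeks, and tumour tissue taken from the lungs 8 weeks later was put into primary culture. Both groups shared the medium with fetal bovine serum, and 6 µg of total RNA was labelled with biotin for each array. Each group had 1 array, so a difference below describes this pair of cultures, with no replicate error and no test, and effects of culture or hybridization cannot be told apart from the line. The labels do not say how many mice or tumours gave CMT-93-PM1, whether it is a clone, or whether host lung cells remained in it.

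MMPs are zinc-dependent endopeptidases that are made as inactive precursors and together can cleave nearly all components of the extracellular matrix. Most are secreted, while MMP14 and MMP15 are anchored in the plasma membrane and act at the cell surface. TIMPs bind the active site of MMPs, so proteolysis around a tumour cell depends on both sides. In carcinomas, these enzymes have been studied for their part in basement membrane breakdown, growth factor release and spread to other organs.

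The promoters of the members fall into different types, and 6 of them are shown because they belong to the genes the results turn on or border. RefSeq promoter windows of GRCm38.p6 (250 bases before to 50 after each start) were matched for 8 of the 10 members by symbol, in 9 windows since Mmp12 has 2 starts. Mmp2 and Mmp9 were not matched. The 120 bases before the start are given 5′ to 3′ on the strand of the gene, with capitals for the AP-1 letters TGANTCA, the TATA letters TATAAA and the GC box letters GGGCGG, each searched on both strands. The Mmp13 bases lie at chr9:7272394-7272513 (plus strand), those of the second Mmp12 start at chr9:7347254-7347373 (plus) and those of Mmp10 at chr9:7502222-7502341 (plus). Those of Mmp14 lie at chr14:54431478-54431597 (plus), those of Timp2 at chr11:118355412-118355531 (minus) and those of Timp3 at chr10:86300292-86300411 (plus).
Mmp13: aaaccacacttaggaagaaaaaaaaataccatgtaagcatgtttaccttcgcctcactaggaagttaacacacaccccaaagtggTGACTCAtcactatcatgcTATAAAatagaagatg
Mmp12: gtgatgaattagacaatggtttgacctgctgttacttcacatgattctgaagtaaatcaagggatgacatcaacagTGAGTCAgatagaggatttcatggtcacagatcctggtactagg
Mmp10: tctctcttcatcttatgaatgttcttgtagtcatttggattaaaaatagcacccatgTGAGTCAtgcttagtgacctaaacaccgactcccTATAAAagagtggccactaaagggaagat
Mmp14: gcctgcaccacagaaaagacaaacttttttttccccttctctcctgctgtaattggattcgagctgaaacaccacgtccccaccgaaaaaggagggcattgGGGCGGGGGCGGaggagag
Timp2: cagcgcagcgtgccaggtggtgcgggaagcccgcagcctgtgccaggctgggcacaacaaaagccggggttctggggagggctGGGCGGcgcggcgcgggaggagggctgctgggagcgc
Timp3: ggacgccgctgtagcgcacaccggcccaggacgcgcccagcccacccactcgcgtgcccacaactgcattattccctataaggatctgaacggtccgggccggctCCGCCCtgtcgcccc

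Mmp10, Mmp13 and the second Mmp12 start held 1 AP-1 match each, at 63, 35 and 44 bases before the start. All of these windows also held the TATA letters, in the Mmp12 window only after the start. No GC box letters were found in any of them. Mmp14 held 2 GC boxes, at 19 and 13 bases before the start, Timp3 held 2, of which 1 lies after the start, and Timp2, Timp1 and Mmp15 held 1 each. No AP-1 or TATA letters were found in the windows of Mmp14, Mmp15, Timp1, Timp2 and Timp3 or at the first Mmp12 start. The Ets letters AGGAAG, searched on both strands and not in capitals here, were found 3 times for Timp1, 2 times for Mmp13 and 1 time each for Mmp14, Timp3 and the first Mmp12 start. Among all 32817 windows of this length, 7.81% held the AP-1 letters, 13.6% the TATA letters, 35.6% the GC box letters and 35.4% the Ets letters. The Timp2 and Timp3 windows held 25 and 24 CpG dinucleotides and the Mmp14 window 10, against a median of 7 over all windows, while the Mmp10, Mmp12 and Mmp13 windows held at most 3. A match gives letters only and shows no binding, and CpG methylation was not measured in these data.

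Signals were deposited on a log2 scale. No detection calls were used, so the 40th percentile of each array served as its floor, which lay at 4.69 log2 (parental) and 4.59 log2 (lung-recovered), and a gene at or under it on both counts as not measured. Where only 1 array is at the floor, the fold is a bound, written "at least". Ratios are lung-recovered minus parental, and a gene with several probe sets is represented by the one with the highest mean signal. Median signals were 5.36 and 5.26 log2 on the parental and lung-recovered arrays. Of the 21 member probe sets, 19 were above the floor on at least 1 array, and 9 of 9 genes were measured.

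Of the 9 measured members, the membrane protease gene Mmp14 was at least 2-fold higher in the lung-recovered line, and Timp3, Mmp12 and Mmp13 were at least 2-fold lower. The same limit was reached upward by 4.42% and downward by 2.55% of all 13332 measured genes. These 4 members were also past 4-fold, a size that 0.788% of genes reached upward and 0.638% downward. Because the members were chosen with earlier results of these data known, these shares describe the set and test nothing about the family. The other 5 members stayed within 2-fold by their representative probe sets, and the median log2 ratio was -0.18 over the members and 0 over all measured genes. By probe set, 5 of the 19 passed 2-fold upward and 6 downward, against 3.74% and 3.08% of all probe sets above the floor, and probe sets of 1 gene are not independent. No member had measured probe sets of opposite sign.

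**Figure D1:**
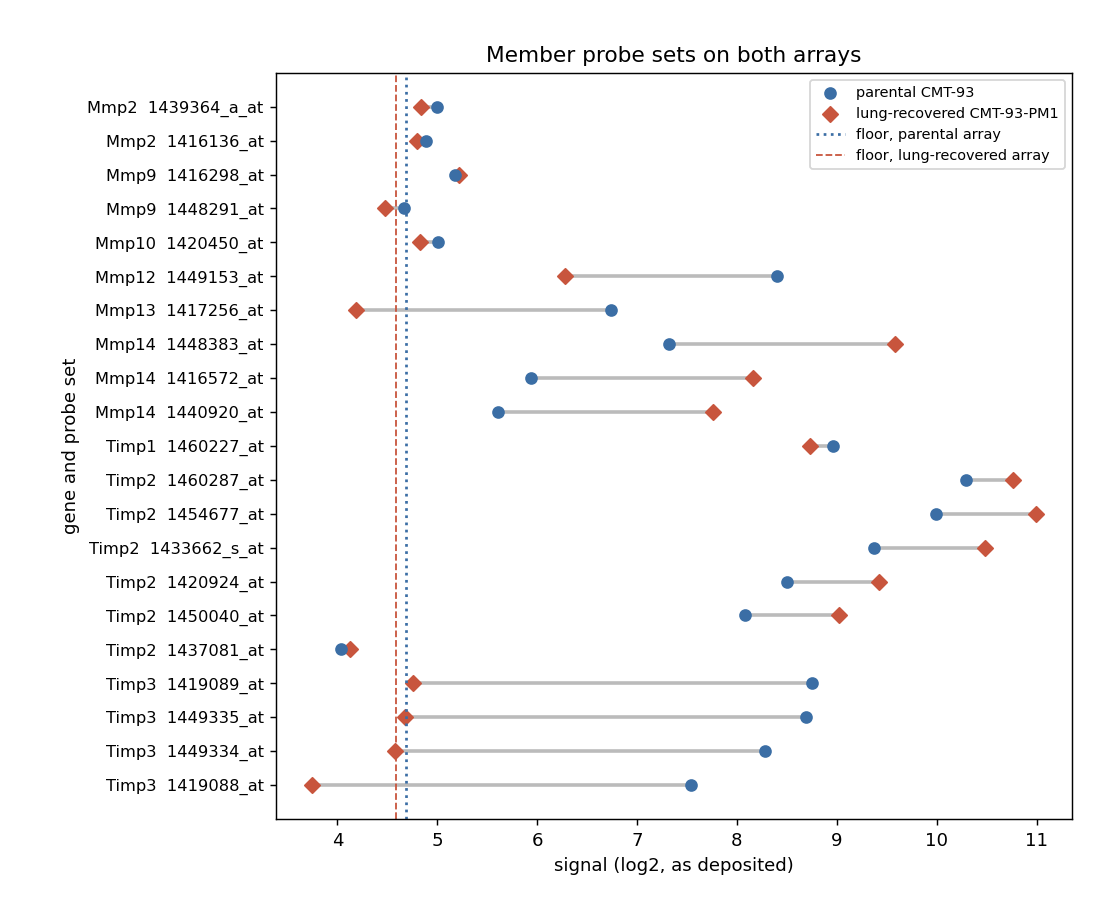
Log2 signal (horizontal axis) of each of the 21 member probe sets on the parental array (circles) and the lung-recovered array (diamonds), joined by a grey line, with the floor of each array as a vertical line. The 3 Mmp14 probe sets move right, the 4 Timp3 probe sets move left to within 0.17 log2 of the lung-recovered floor or below it, and the Mmp2, Mmp9 and Mmp10 probe sets lie close to the floors on both arrays.

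Mmp14 encodes a membrane-anchored collagenase that also activates the precursor of MMP2 at the cell surface. Its brightest probe set (1448383_at) went from 7.32 log2 in the parental line to 9.58 log2 in the lung-recovered line, a 4.79-fold higher signal. The second probe set (1416572_at) read 5.94 and 8.16 log2, and the third (1440920_at) 5.61 and 7.76 log2. All 3 lay above the floor on both arrays, and their log2 ratios of 2.26, 2.22 and 2.15 had an SD of 0.06. That spread between probe sets is technical and compares with a median SD of 0.18 over 6172 genes with several measured probe sets. In the lung-recovered line every Mmp14 probe set was thus higher by a like amount, and 0.510% of measured genes had a higher ratio.

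Mmp2 and Mmp9 encode the gelatinases, which cleave denatured collagen and the collagen of basement membranes, and MMP2 is the best known substrate of MMP14. Mmp2 read 5.00 and 4.84 log2 by its brighter probe set and 4.89 and 4.80 log2 by its other one. Mmp9 read 5.18 and 5.22 log2 by its brighter probe set, and its other one was at the floor on both arrays, at 4.67 and 4.48 log2. No Mmp2 or Mmp9 probe set lay more than 0.63 log2 above the floor of its array, so both gelatinase genes were near background in both lines and a difference between the lines was not detectable at this signal. Their log2 ratios of -0.16 and 0.04 lay within the central 90% of genes of like mean signal, which ran from -0.54 to 0.41 for the bin of Mmp2 and from -0.61 to 0.82 for that of Mmp9.

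Mmp12 and Mmp13 were the proteases with lower signal in the lung-recovered line. Mmp12 encodes an elastase best known from macrophages, and its only probe set read 8.40 log2 in parental and 6.28 log2 in lung-recovered cells, 4.35-fold lower and above both floors. Mmp13 encodes a collagenase that cleaves fibrillar collagen, and its only probe set read 6.74 and 4.19 log2, at least 4.44-fold lower. When the 60th percentile was the floor, the Mmp13 ratio shrank from -2.15 to -0.59 log2 and no longer passed 2-fold. Each of these results rests on 1 probe set. In their bins of mean signal, 3.59% of genes (Mmp12) and 2.34% (Mmp13) were at least 2-fold lower. Mmp10, which encodes stromelysin-2, a protease that can activate other MMP precursors, read 5.01 and 4.83 log2 by its only probe set, at most 0.32 log2 above the floor.

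Mmp13, Mmp12 and Mmp10 share more than their promoter letters, since they belong to a cluster of MMP genes on chromosome 9. Of the 9 genes of this cluster with a named probe set, 5 (Mmp1b, Mmp3, Mmp1a, Mmp8 and Mmp20) were at the floor on both arrays. Mmp7, which encodes the epithelial protease matrilysin and lies at the other end, read 5.20 and 5.32 log2. Mmp13 and Mmp12 are next to each other in the map order of named genes and were the only genes of the cluster that passed 2-fold. Of the measured genes among the 5 on each side of Mmp12, Mmp13 was at least 2-fold lower and the other 3 were within 2-fold. The 3 members with AP-1 and TATA letters did not have 1 pattern. Mmp12 and Mmp13 were lower in the lung-recovered line, and Mmp10 was near the floor in both lines. For Mmp12 the letters were found only at its second start, with the TATA letters after that start.

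**Figure D2:**
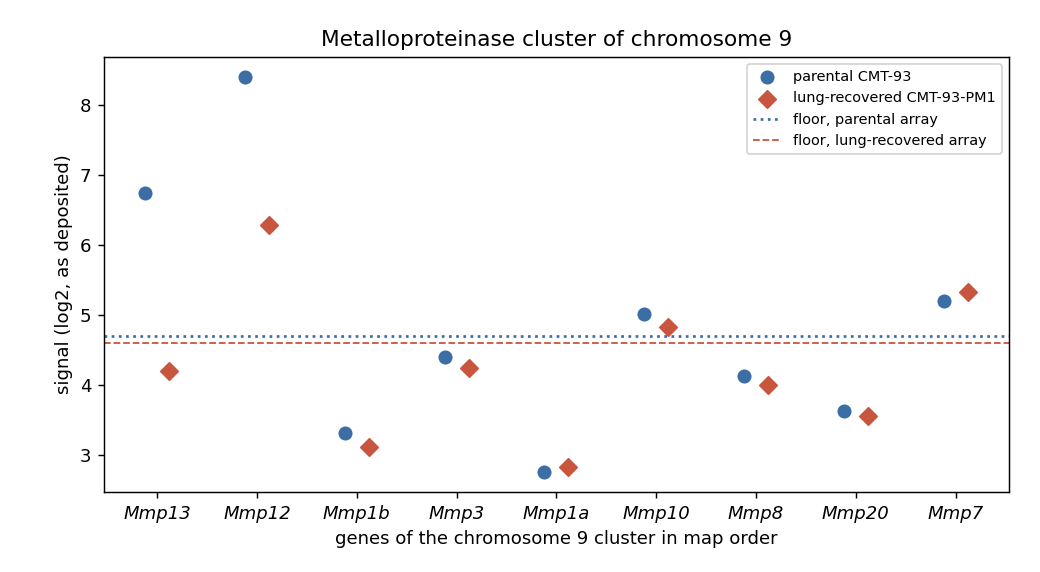
Log2 signal (vertical axis) of the 9 metalloproteinase genes of the chromosome 9 cluster in map order, on the parental (circles) and lung-recovered (diamonds) arrays, with each array's floor as a horizontal line. Mmp13 and Mmp12 stand above the parental floor and are lower on the lung-recovered array, where Mmp13 is below the floor, while the other genes lie below or close to the floors on both arrays.

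Among the inhibitors, Timp3 had by far the largest difference. TIMP3 is the family member that binds to the extracellular matrix, and it inhibits several ADAM and ADAMTS proteases besides MMPs. Its probe sets read 8.75 and 4.76 log2 (1419089_at), 8.69 and 4.68 log2 (1449335_at), 8.28 and 4.58 log2 (1449334_at) and 7.54 and 3.75 log2 (1419088_at) in the parental and lung-recovered lines. All 4 were clearly above the floor in the parental line, and in the lung-recovered line 2 were within 0.17 log2 above the floor and 2 at it. The signal was 15.9-fold lower by the first, 16.1-fold by the second, at least 12.9-fold by the third and at least 7.73-fold by the fourth. Since the lung-recovered signals are at background, the size is uncertain. The log2 ratio of -3.99 was the same with no floor or one at the 20th percentile, and became -2.60 when the 60th percentile was the floor.

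Timp3 lies inside Syn3, the gene of synapsin III, on chromosome 10. Syn3 itself was near the floor, at 4.82 and 4.67 log2. Of the 10 named genes around Timp3 in map order, 8 were measured, 0 were at least 2-fold lower and 1 was higher (Stab2, at 4.86 and 6.17 log2). Of the 10 around Mmp14, 9 were measured, of which 0 were lower and 1 higher (Rem2, at 4.79 and 6.40 log2). A difference past 2-fold was thus not shared by most of the measured neighbours of Timp3 and Mmp14 on the chromosome. The median log2 ratio of the measured neighbours was 0.43 for Mmp14 and 0.135 for Timp3, against 0 over all measured genes. A smaller shift of the region was not tested.

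Timp2 and Timp1 remained well above the floor in both lines. TIMP2 inhibits MMP14 and, in complex with it, also presents the MMP2 precursor for activation. Its brightest probe set (1460287_at) read 10.29 and 10.76 log2, 1.39-fold higher in the lung-recovered line. The other measured probe sets gave larger ratios, from 0.92 to 1.11 log2, the highest for 1433662_s_at at 9.37 and 10.48 log2, or 2.16-fold. The median ratio over the 5 measured probe sets was 0.94 log2, so the probe set chosen by brightness gave the smallest Timp2 difference and the others lay near the 2-fold limit. A sixth probe set was at the floor, at 4.04 and 4.13 log2. Timp1, which encodes a secreted inhibitor that acts only weakly on MMP14, read 8.96 and 8.73 log2 by its only probe set, 1.17-fold lower and within the central 90% of its bin (from -0.66 to 0.91 log2).

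**Figure D3:**
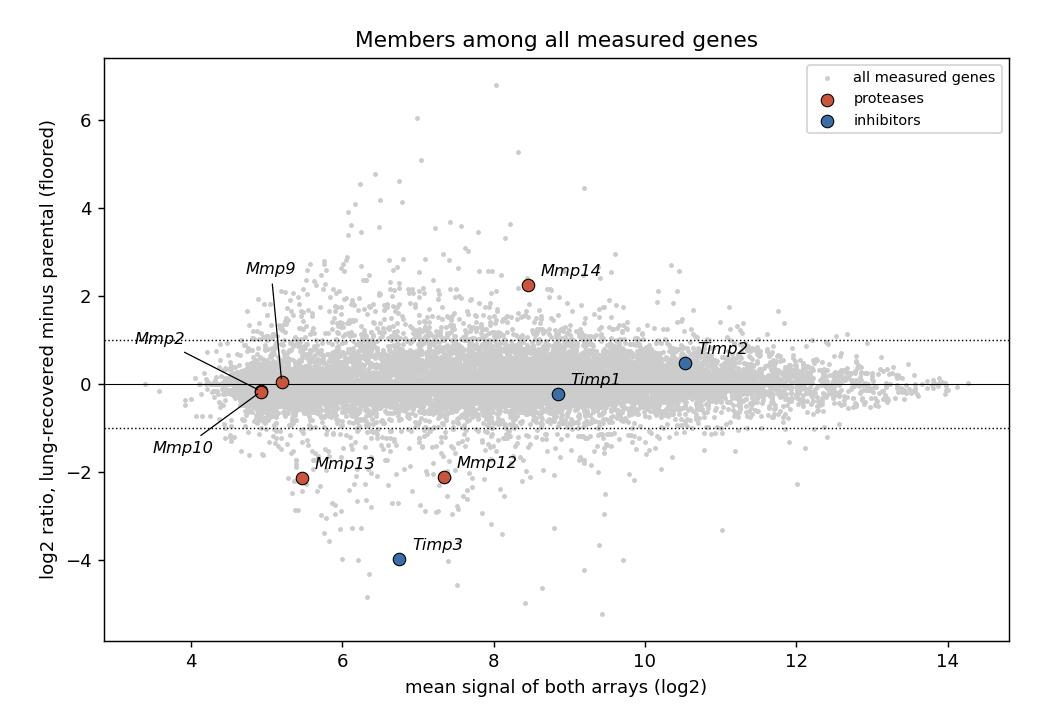
Log2 ratio of lung-recovered over parental signal (vertical axis) against mean log2 signal of both arrays (horizontal axis) for all 13332 measured genes (grey), member proteases (red) and inhibitors (blue), with dotted lines at 2-fold. Mmp14 lies above the 2-fold line at 2.26, Mmp12, Mmp13 and Timp3 lie below it at -2.12, -2.15 (a bound) and -3.99, and the other members lie between the lines.

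Protease was next weighed against inhibitor. Signals of different probe sets cannot be compared as levels, so the log2 ratio of each inhibitor was subtracted from that of each protease, which gives the change in their signal ratio between the lines. Mmp14 was the only protease to gain at least 2-fold against each of the 3 inhibitors. Its signal gained 2.49 log2 relative to Timp1, or 5.62-fold. Relative to Timp2 it gained 1.79 log2, or 3.46-fold, by the brightest Timp2 probe set, which gave the smallest Timp2 ratio. Over all combinations of measured Mmp14 and Timp2 probe sets the gain ran from 1.04 to 1.79 log2. By the median over probe sets it was 1.28 log2. Relative to Timp3 the difference was 6.25 log2, from 5.10 to 6.27 log2 over probe sets and 4.86 log2 when the 60th percentile was the floor. It stayed at 6.25 log2 with no floor or one at the 20th percentile. Since Timp3 was near background in the lung-recovered line, the size of that difference is uncertain and no fold is given.

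The result for the other proteases depended on the inhibitor. Relative to Timp3, the 6 differences by representative probe set were above 0, from 1.84 to 6.25 log2. Those of Mmp2, Mmp9 and Mmp10 (from 3.81 to 4.03 log2) carry the Timp3 difference alone, since these proteases were near background in both lines. Mmp12 against Timp3 was at 1.87 log2 but ran down to 0.83 over probe sets and was 0.48 when the 60th percentile was the floor, so a gain of 2-fold was not settled. Mmp13 against Timp3 was at 1.84 log2 and ran down to 0.80 over probe sets, with both genes at background in the lung-recovered line, so this value is no bound in either direction. Relative to Timp2, Mmp12 and Mmp13 were lower by at least 2-fold, at -2.59 and -2.62 log2, and Mmp2, Mmp9 and Mmp10 lay between -0.65 and -0.43 log2 by the brightest Timp2 probe set, which gave the smallest Timp2 ratio. By the median over probe sets they were at -1.07, -0.90 and -1.12 log2, so Mmp2 and Mmp10 then passed 2-fold. These values too carry the Timp2 difference alone, since Mmp2, Mmp9 and Mmp10 were near background in both lines. Relative to Timp1, Mmp12 and Mmp13 were again lower, at -1.89 and -1.92 log2. The Mmp13 values against Timp1 and Timp2 are upper limits, because Mmp13 was at the floor in the lung-recovered line, and they shrank to -0.36 and -1.06 log2 when the 60th percentile was the floor. Of the 18 pairs, 11 were above 0 and 7 below, and pairs share genes, so they are not independent. The count includes all pairs of the near-background Mmp2, Mmp9 and Mmp10, and Mmp13 against Timp3, so it gives no direction for the balance. The median protease ratio was -0.17 and the median inhibitor ratio -0.23 log2, a difference of 0.06 log2. That protease median lay between the ratios of Mmp10 (-0.18) and Mmp2 (-0.16), both near background, and the inhibitor median was the Timp1 ratio. The difference became -0.36 when the 60th percentile was the floor, so the family medians gave no settled direction for the balance.

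**Figure D4:**
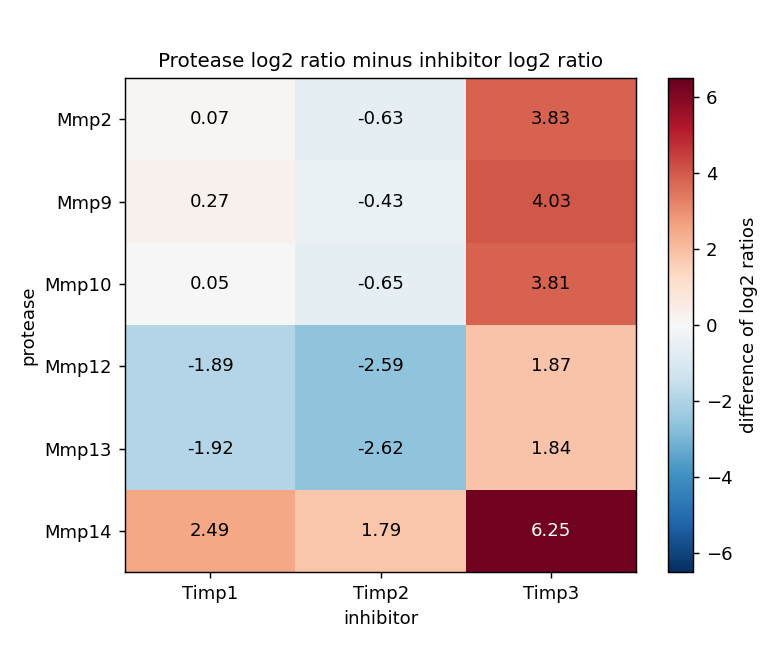
Log2 ratio of each measured protease (rows) minus that of each inhibitor (columns), where red is a gain and blue a loss of protease signal relative to the inhibitor in the lung-recovered line. The Timp3 column, where the lung-recovered Timp3 signal is at background, holds values from 1.84 to 6.25, and the Mmp14 row is red for all 3 inhibitors.

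Among the other listed genes of the family, no measured gene passed 2-fold. The same limit was reached upward by 4.42% and downward by 2.55% of all measured genes. At such shares, lists as short as those below would hold few such genes or none. Members and lists were chosen with earlier results of these data known, so a contrast between them can reflect that choice. Of 17 other genes (16 further MMP genes and Timp4), 13 had a named probe set and 7 were measured, of which none passed 2-fold (0 higher, 0 lower), and their median ratio was -0.10 log2. The brightest of them were Mmp23 (7.70 and 8.13 log2) and Mmp11 (6.45 and 6.94 log2). Of 15 measured ADAM and ADAMTS genes, which encode related proteases that TIMP3 in part inhibits, none (0) was higher and 1 was lower past 2-fold, and the median was -0.11. The lower one was the ADAMTS protease gene Adamts1, at 10.50 and 9.17 log2, 2.51-fold lower. The sheddase gene Adam17, whose product is a target of TIMP3, read 8.69 and 9.08 log2.

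Other regulators of MMP activity were mostly within 2-fold. Of 16 measured genes of this list, 1 was higher and 1 lower, with a median of 0.04. Most genes of the arrays were within 2-fold too, with 4.42% of all measured genes higher and 2.55% lower. Lrp1, which encodes an endocytic receptor that clears MMPs and TIMPs from the cell surface, read 5.39 and 8.05 log2, 6.32-fold higher, with its other probe set at the floor. Lcn2, whose product binds MMP9, read 8.73 and 7.59 log2, 2.20-fold lower. Furin, the convertase that removes the MMP14 propeptide, read 8.67 and 8.10 log2, and Bsg, which encodes an inducer of MMP expression, 12.08 and 12.12 log2. Reck, which encodes a membrane-anchored inhibitor of MMPs, was at the floor on both arrays.

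Among 16 measured AP-1, Ets and other factors known to act on MMP promoters, 3 passed 2-fold upward and 0 downward, and the median was 0.22. They were Fos (7.63 and 9.79 log2, 4.47-fold), Ets1 (9.13 and 10.39 log2, 2.39-fold, with log2 ratios from 0.59 to 1.26 over its measured probe sets) and Jun (9.76 and 10.78 log2, 2.03-fold, and 0.82 log2 by its other probe set). FOS and JUN can pair to form AP-1. Of 21 measured substrate genes, 3 passed 2-fold upward and 0 downward, and the median was 0.20. They were the collagen genes Col8a1 (6.08 and 9.17 log2) and Col18a1 (6.52 and 9.10 log2) and the laminin gene Lamb3 (7.76 and 9.45 log2). Of all measured genes, 4.42% passed 2-fold upward and 2.55% downward. Both lists were chosen with earlier results of these data known, and a link of these factors to the member values was not tested.

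**Figure D5:**
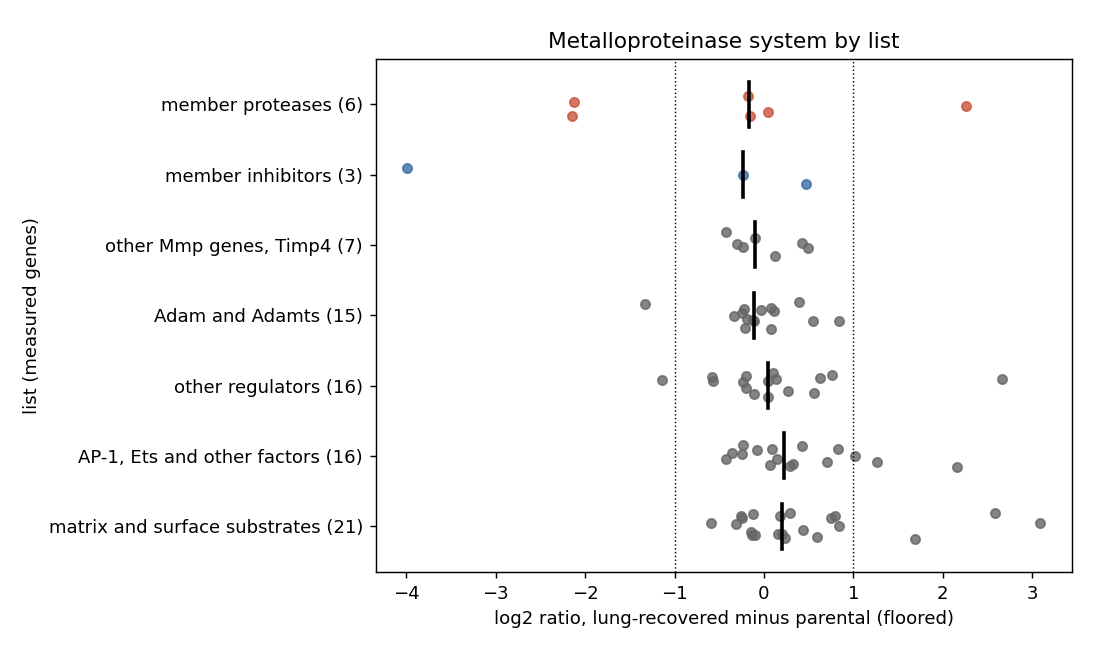
Log2 ratio of lung-recovered over parental signal (horizontal axis) for each measured gene of 7 lists (rows, with the number of measured genes), with the list median as a black bar and dotted lines at 2-fold; vertical scatter within a row has no meaning. Mmp14, Mmp12, Mmp13 and Timp3 stand apart in the upper 2 rows. The other family members and the ADAM and ADAMTS genes lie between the dotted lines, except Adamts1 at -1.33.

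General epithelial markers were bright in both cultures, and most markers of differentiated intestine were not detected. Of 14 epithelial and intestinal markers, 10 were measured, 0 passed 2-fold, and their summed linear signal was 30361 in parental and 38960 in lung-recovered cells. Krt19 was brightest, at 12.72 and 12.98 log2. Neither array gave a signal above its floor for the intestinal markers Krt20, Cdx1, Vil1 and Lgals4, and Cdx2 read 5.24 and 5.08 log2.

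Since fibroblasts and macrophages express several MMPs and TIMPs, their markers are given beside the results for Mmp12, Mmp13, Mmp14 and Timp3. In a bulk culture, fewer cells of a type and less RNA per cell cannot be told apart. Of 14 macrophage and leukocyte markers, 8 were measured, with a summed linear signal of 1954 in parental and 1121 in lung-recovered cells. The brightest marker, Cd14, carried this difference, and the sum of the other 7 went the other way, at 369 and 556, in an alternative chosen after seeing the data. Such sums add probe sets of unequal response and only describe each list. Ptprc, Adgre1, Itgam, Mrc1, Itgax and Tyrobp were at the floor on both arrays. Cd68 (5.23 and 7.05 log2) and Csf1r (6.42 and 7.54 log2, and 0.02 log2 for the lowest of its probe sets) were higher and Cd14 (10.63 and 9.14 log2) was lower. Of 14 fibroblast and mural cell markers, 6 were measured, with 0 past 2-fold and sums of 336 and 280. Col1a1, Col3a1, Lum, Pdgfra, Thy1, Fap, Postn and Rgs5 did not pass either floor, and Des was brightest, at 6.78 and 6.23 log2.

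Of 10 endothelial markers, 5 were measured, with sums of 1010 and 1170, and 523 and 754 without Esam. The higher sums were carried by Cdh5 alone, since the other 4 measured markers had ratios below 0. Cdh5 (4.21 and 9.30 log2) was higher, with a lowest probe set ratio of 0.83 log2, Tek (8.57 and 3.43 log2) was lower and Esam was brightest on the parental array, at 8.93 and 8.70 log2. Pecam1, Tie1, Emcn, Cldn5 and Vwf were at the floor on both arrays. Of 13 lung epithelial markers, 12 had a named probe set and 8 were measured, with sums of 2408 and 1722. Napsa (7.74 and 5.69 log2) was lower, Aqp5 was brightest (10.68 and 10.01 log2), and Sftpa1, Nkx2-1, Scgb1a1 and Scgb3a2 were at the floor on both arrays. The part of other cell types in the member values was not tested beyond these levels.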

How the data were processed

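The authors deposited log2 signals with 2 decimals for 45037 probe sets on 2 arrays. Base 2 was taken from the values, whose maxima are then 19484 and 19893 on a linear scale. MAS5 appears in the submitters' processing notes without a stated role, and summarisation, scaling and detection calls are not given in the sources used here. The log2 values were used as deposited, so an unequal scaling of the arrays would shift all ratios alike.

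Probe sets were named from the platform annotation (35877 listed, 34945 with 1 symbol, 932 with several), with symbols updated by Entrez identifier to GRCm38.p6 (34741 matched). Map order comes from that assembly. Ratios, floors and bins used Python 3.11.15, pandas 2.3.3 and, for lowess, statsmodels 0.14.6. The ratio calculation was tested on simulated data with ratios planted in bright genes, so bins and bounds at the floor were not checked by it. With 1 array per group no p-value was computed, and the number of arrays limits the precision. Genes were counted at 2-fold, with 10 bins of mean signal.

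Members and lists were chosen with earlier results of these data known. Named genes are all members, up to 4 genes past 2-fold per list and the brightest marker per cell type. Mmp11, Mmp23, Mmp7, Adam17, Furin, Bsg, Reck, Syn3, Stab2, Rem2, Cdx2 and markers at the floor were named after their values were seen. Alternatives covered scaling to equal medians, quantile normalization, lowess (span 0.3), no floor or one at the 20th or 60th percentile, the median over probe sets, leaving out probe sets whose suffix has an s, x or a, and fold rules of 1.5 and 4.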

Additional observations from a re-analysis of the deposited data

How the results depend on the processing

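The numbers of members past 2-fold (1 higher, 3 lower) stayed within 1.5 times under all alternatives, and 2 were lower at a 60th percentile floor, where Mmp13 reached -0.59 log2. At that floor Mmp2, Mmp9 and Mmp10 were not measured. The median protease minus median inhibitor ratio, 0.06 log2 as reported, was 0.25 after quantile normalization, 0.25 after lowess and -0.36 at the 60th percentile floor, where only 3 proteases were measured. Mmp14 ran from 2.18 to 2.36 log2 and Timp3 from -4.00 to -2.60 over the settings. With the median over probe sets Mmp2 and Mmp10 passed 2-fold downward against Timp2, at -1.07 and -1.12 log2. Both proteases were near background, so these values carry the Timp2 difference alone. At the 60th percentile Mmp12 against Timp3 was 0.48 and Mmp13 against Timp1 -0.36 log2, both within 2-fold, and the macrophage list had 1 gene higher in place of 2. Genes past 2-fold overall numbered 439 to 720 higher and 257 to 387 lower. No paired analysis was possible because each group has 1 array. Signals near the floor limit Mmp2, Mmp9, Mmp10 and the sizes for Mmp13 and Timp3.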
